A study of Rattus norvegicus with 30 samples.

Results

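The data describe 9 genes that hold or release the brake on the cell cycle in the rat heart. They are the cyclin-dependent kinase inhibitors Cdkn1a, Cdkn1b, Cdkn2a, Cdkn2b, Cdkn2c and Cdkn2d, the ubiquitin ligase Mdm2, and the D-type cyclins Ccnd1 and Ccnd2. They were taken by name from the deposited expression tables, and 8 of the 9 had at least 1 row, giving 10 rows among 27408 rows at 8 weeks, 27383 at 21 weeks and 26553 at 78 weeks. Cdkn2b had no row and was followed on its probe in the scanner files, where the 9 genes had 15 of the 41012 probes. RNA came from the whole hearts of 30 untreated Fischer rats (F344), with 5 females and 5 males at 8 weeks (young), 5 and 5 at 21 weeks (adult) and 5 and 5 at 78 weeks (old). Each heart was hybridised to 1 array in 1 colour. No group carried a treatment or an allele of its own, and the study asked how the sexes differ within each age.

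Cdk inhibitors act where a cell decides whether to enter S phase. D-type cyclins bind Cdk4 and Cdk6 to open that step, the Ink4 proteins (encoded by Cdkn2a to Cdkn2d) bind those kinases and keep the cyclins off, and the Cip/Kip proteins (encoded by Cdkn1a and Cdkn1b) block the later cyclin E and Cdk2 complexes. DNA damage switches on Cdkn1a and Mdm2, whose product limits that same response, and lasting Cdkn1a and Cdkn2a expression accompanies cellular senescence in many tissues, while most cardiomyocytes of the adult heart no longer divide.

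Of the 7 cardiomyocyte markers measured (Myh6, Tnnt2, Tnni3, Actc1, Myl2, Ryr2 and Pln), all were well above background on every array, and so were the 3 atrial, 6 fibroblast and 6 endothelial markers, so each sample was a mixture. In such a mixture, fewer cells of a type and less RNA per cell cannot be told apart. Between 22166 and 24290 of 43379 spots were well above background at 8 weeks, 17182 to 22851 at 21 weeks and 21371 to 22961 at 78 weeks. The Y-linked gene Ddx3y lay between -6.68 and -5.76 (log2, table scale) in 14 of 15 female hearts and between -2.06 and -1.25 in 14 of 15 male hearts. The 78-week array labelled female replicate 2 stood at -1.68 and the 78-week array labelled male replicate 3 at -6.25, each within the range of the other sex. Comparisons of the sexes at 78 weeks, and of 78 with 8 weeks within a sex, are therefore given with and without both arrays, which are named as labelled throughout.

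Levels by probe are on a log2 scale relative to the 75th percentile of the spots of that array, on which 0 is the level of the 75th percentile spot. Levels by table row are the deposited values of the same kind on a log2 scale, in which all spots of 1 name were averaged and each age was scaled apart. For each gene the probe well above background on most arrays is called its lead probe. Levels are compared between hearts for the same probe, never between probes. Adjusted p-values are from limma, two-sided, over all rows or all probes.

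Between females and males, 0 of the 10 rows passed an adjusted p of 0.05 at 8, 21 or 78 weeks, where 0.219%, 0.124% and 0% of all rows did. From the raw median signal in place of the deposited values 1 row passed, Cdkn2c at 21 weeks. At an unadjusted p of 0.05, 1 of the 10 passed at each age, where 6.29%, 18.5% and 6.34% of all rows did. The differences of the 8 rows that include a gene's lead probe, some averaged with another probe, ran from -0.48 to 0.16 at 8 weeks (female minus male, log2). They ran from -0.44 to 0.24 at 21 weeks and -0.49 to 0.17 at 78 weeks. The sexes did not overlap in 1 row at 8 weeks, 0 at 21 weeks and 0 at 78 weeks, against 1.41%, 4.05% and 0.9% of all rows. Females sat on other array positions of each slide than males, so sex and position cannot be told apart.

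Between ages the picture was larger and less secure. In 78-week against 8-week hearts, 3 of the 15 probes passed (Cdkn1a and Cdkn1b lower, Cdkn2a higher), against 11.9% of all 40999 probes tested, 6.37% higher and 5.52% lower. Among probes well above background on all 30 arrays, 23.2% passed. In 21-week against 8-week hearts 10 of the 15 passed, 6 higher and 4 lower, but so did 57.3% of all probes, 42% higher and 15.3% lower. Among the higher was the probe of an expressed sequence tag listed under Cdkn2c (0.54, adjusted p = 0.00351). That tag was well above background on 0 of 30 arrays, and probes well above background on no array had a median difference of 0.47 in this comparison. In 78-week against 21-week hearts 7 passed, 3 higher and 4 lower, against 32.7% of all probes, 14.2% higher and 18.5% lower. Read against those shares, the counts are no result about these genes as a group, and several of the 15 probes read the same gene.

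The study kept each age in its own batch and did not test age. Of the 8 slides, 1 held both 8-week and 78-week arrays (females and males, 1 of each age), and the 21-week arrays had slides of their own. Age at 21 weeks and slide therefore cannot be told apart. The median difference over all probes was 0.13 (log2) for 78 against 8 weeks, 0.28 for 21 against 8 and -0.17 for 78 against 21. Among probes on all 30 arrays it was -0.01 for 78 against 8 weeks.

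Cdkn1a encodes p21, the inhibitor that stops the cycle at G1 after DNA damage. Its lead probe, printed on 10 spots, lies at chr20:7386823-7386882 on the plus strand of rn3 and was well above background on all 30 arrays. In 8-week hearts its level ran from 2.90 to 3.36 (median 3.16). In 21-week hearts it ran from 2.58 to 3.20 (median 3.08), and in 78-week hearts from 1.52 to 3.33 (median 2.75). The older hearts did not simply sit lower: they spread over a range several times as wide, with some at the level of the young and others far under every young heart.

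The low values at 78 weeks were mainly those of females. The 5 females had 2.46, 2.95, 2.35, 1.52 and 2.57, of which 2.95 belongs to the array labelled female replicate 2 that carried male Y-linked signal. The 5 males had 3.06, 3.00, 2.19, 3.33 and 2.94, of which 2.19 belongs to the array labelled male replicate 3 that lacked it. Apart from these 2 arrays, every 78-week female lay below every 78-week male and below every 8-week heart of either sex.

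**Figure D1:**
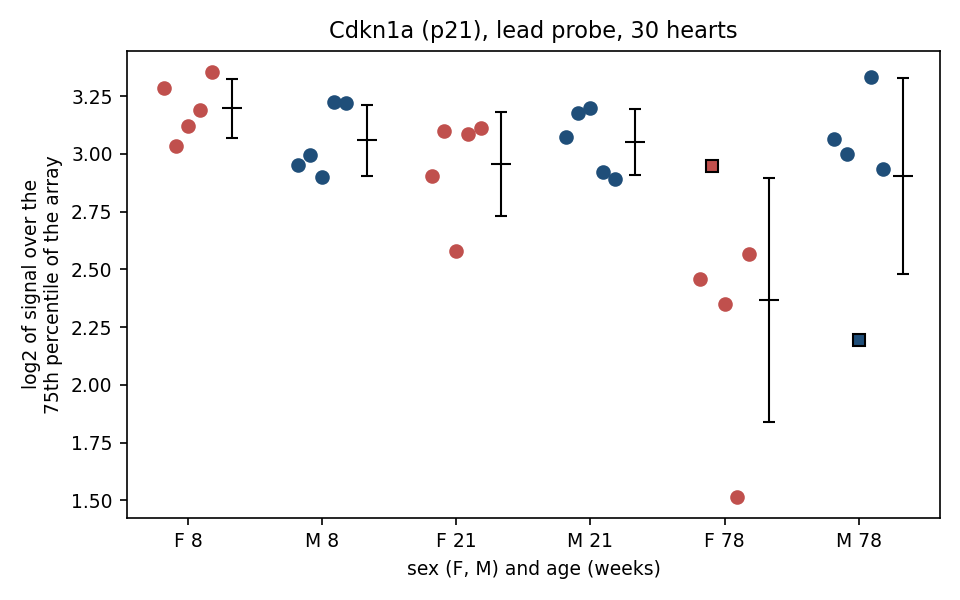
Level of the Cdkn1a lead probe (log2 of signal over the array's 75th percentile, vertical axis) in each of 30 hearts by sex and age in weeks (F red, M blue), with mean and SD of each group of 5 beside the points; squares with a black edge are the 2 arrays at 78 weeks whose Y-linked signal goes against the label. The 78-week females reach down to 1.52 while the 8-week hearts lie between 2.90 and 3.36.

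Averaged over the sexes, Cdkn1a fell by 0.49 from 8 to 78 weeks (SE 0.12, 1.40-fold lower, adjusted p = 0.00414). It fell by 0.37 from 21 to 78 weeks (SE 0.12, adjusted p = 0.0134), a call lost under quantile normalization (-0.24, adjusted p = 0.198), and the 21-week hearts differed from the 8-week hearts by -0.12 (SE 0.12, adjusted p = 0.367). Taken in females alone the fall from 8 to 78 weeks was 0.83 (SE 0.17, 1.78-fold lower, adjusted p = 0.00341), whereas the difference in males alone was -0.15 (SE 0.17, adjusted p = 0.630). The test of that contrast itself, the difference between the sexes of the age difference, gave -0.68 (SE 0.25, unadjusted p = 0.0113) and an adjusted p of 1.00. Without both arrays at odds with their labels the fall in females was 0.97 (SE 0.14, adjusted p = 5.23e-05), the difference in males 0.03 (SE 0.14, adjusted p = 0.941) and the contrast between them -0.9997 (SE 0.21, adjusted p = 0.158). No member probe passed that test for any pair of ages, where 0.00244% of all probes did in each case. For 78 against 8 weeks 2.49% of all probes passed at an unadjusted p of 0.05. Of the 15 member probes the Cdkn1a lead probe and the second Cdkn1b probe described below did (the latter -0.74, SE 0.21, unadjusted p = 0.00151).

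Females alone therefore had 3 of the 15 probes called from 8 to 78 weeks (Cdkn1a and 2 of Cdkn1b, all lower) against 3% of all probes, and males alone had 0 against 4.78%. On the 1 slide that held both ages, Cdkn1a was lower at 78 than at 8 weeks by -0.90 between the females and by -0.15 between the males (log2, 1 heart each). Over the arrays scanned on the same day, 6 of 78 weeks and 10 of 8 weeks, the difference was -0.46. With slide as a fixed term, which leaves the comparison to that 1 slide, the value was -0.53 with an adjusted p of 0.716.

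In the table of 78 weeks the Cdkn1a row gave 1.05 ± 0.51 in females and 1.54 ± 0.45 in males (SD, n = 5 each), a difference of -0.49 (SE 0.26, adjusted p = 0.776, exact permutation p = 0.143). Within the 3 slides that carried 78-week arrays the difference was -0.52, 0.09 and -1.01. The slide that gave 0.09 held both arrays at odds with their labels. Without both arrays at odds with their labels, females had 0.91 ± 0.47 and males 1.73 ± 0.14 (SD, n = 4 each). The difference was then -0.82 (SE 0.20, 1.77-fold lower in females), the sexes did not overlap, and an exact permutation test gave p = 0.0286, which 4 against 4 cannot go below. The adjusted p over all rows was 0.286. Non-overlap of the sexes was found in 6.94% of all rows of those 8 arrays, 9.69% had an unadjusted p under 0.05 and 0.0603% an adjusted p under 0.05, so the separation of Cdkn1a is not rare on the array.

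At the younger ages the sexes lay close. The 8-week females had Cdkn1a levels of 3.29, 3.03, 3.12, 3.19 and 3.36 and the 8-week males 2.95, 3.00, 2.90, 3.22 and 3.22 on the lead probe. The 21-week females had 2.90, 3.10, 2.58, 3.09 and 3.11 and the males 3.07, 3.18, 3.20, 2.92 and 2.89. In the tables the row differed by 0.14 at 8 weeks (SE 0.09, exact permutation p = 0.206) and by -0.13 at 21 weeks (SE 0.14, exact permutation p = 0.452).

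Ordered by group mean, Cdkn1a stood at 3.20 ± 0.13 in 8-week females, 3.06 ± 0.15 in 8-week males, 3.05 ± 0.14 in 21-week males, 2.96 ± 0.23 in 21-week females, 2.91 ± 0.43 in 78-week males and 2.37 ± 0.53 in 78-week females (SD, n = 5 each). Each of the first 5 groups differed from its neighbour in that order by no more than the larger of their SDs. A second Cdkn1a probe about 1 kb upstream was well above background on 17 of the 30 arrays (8, 5 and 4 of 10 at 8, 21 and 78 weeks) and did not pass any of the 3 comparisons of ages, with -0.33 for 78 against 8 weeks (SE 0.26, adjusted p = 0.392).

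The female with the lowest Cdkn1a, replicate 4 of 78 weeks, also had the lowest Cdkn1b (2.08), Cdkn2c (0.05), Ccnd1 (2.94) and Ccnd2 (3.80) among the 78-week hearts on the lead probes. Its second Cdkn1b probe (0.64) was the lowest too, but its second Ccnd1 probe (3.23) and its Cdkn2a (-2.99), Cdkn2d (2.19) and Mdm2 (1.72) were not. Its summed fibroblast markers (7.85) and erythroid markers (3.93) were the lowest of the 78-week hearts too, where the medians of the 78-week females were 8.40 and 5.57 (log2 of the sum). So were its sums of macrophage (5.89), endothelial (6.82), smooth muscle and pericyte (4.56) and lymphocyte markers (0.010). Its cardiomyocyte (11.62), atrial (9.99), adipocyte (6.46) and skeletal muscle (8.45) sums were not the lowest. The part of this heart's makeup in its Cdkn1a value was not tested. Without it the fall of Cdkn1a from 8 to 78 weeks was 0.38.

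Cdkn1b encodes p27, the inhibitor that keeps Cdk2 silent in resting cells. Its lead probe, on 10 spots at chr4:172091286-172091345 (plus strand, rn3), was well above background on all 30 arrays. The level ran from 2.49 to 2.81 at 8 weeks (median 2.57), 2.64 to 2.99 at 21 weeks (median 2.76) and 2.08 to 2.59 at 78 weeks (median 2.42). Only the upper part of the 78-week range reached the 8-week hearts, and it stayed under every 21-week heart.

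Cdkn1b fell by 0.21 from 8 to 78 weeks (SE 0.06, 1.15-fold lower, adjusted p = 0.0133). It rose by 0.19 from 8 to 21 weeks (SE 0.06, adjusted p = 0.00524; 0.07 and adjusted p = 0.354 under quantile normalization) and fell by 0.40 from 21 to 78 weeks (SE 0.06, adjusted p = 1.10e-06). In females alone the 78-week value was lower by 0.31 (SE 0.08, adjusted p = 0.0345) and in males alone the difference was -0.11 (SE 0.08, adjusted p = 0.460). The call in females was lost without both arrays at odds (-0.31, SE 0.09, adjusted p = 0.0577) and males gave -0.14 (SE 0.09, adjusted p = 0.423). On the slide with both ages the difference was -0.25 between females and -0.10 between males. With scan day as a term it was -0.17, with an adjusted p of 0.129.

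A second Cdkn1b probe, at chr4:172090371-172090430 and also well above background everywhere, disagreed at 21 weeks. It fell by 0.84 from 8 to 21 weeks (SE 0.10, 1.79-fold lower, adjusted p = 5.29e-08) and rose by 0.60 from 21 to 78 weeks (SE 0.10, adjusted p = 1.11e-05), against the direction of the lead probe both times. For 78 against 8 weeks both probes had the same sign, the second with -0.24 (SE 0.10, adjusted p = 0.114). In females alone the second probe fell by 0.61 from 8 to 78 weeks (SE 0.15, adjusted p = 0.0125) and in males alone it differed by 0.13 (SE 0.15, adjusted p = 0.631). Without both arrays at odds these values were -0.72 (SE 0.14, adjusted p = 0.00232) and 0.22 (SE 0.14, adjusted p = 0.422), and the contrast between them -0.94 (SE 0.21, adjusted p = 0.192). The 2 probes lie on the same strand within 1 kb of each other, and a single direction for Cdkn1b at 21 weeks cannot be given.

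The Cdkn1b row of the tables was the 1 member row whose sexes did not overlap at 8 weeks. Its 5 females had 1.86, 2.04, 1.87, 1.91 and 1.86 and its 5 males 1.75, 1.73, 1.74, 1.75 and 1.75 (log2, table scale). The males lay between 1.73 and 1.75 and every female lay above them. The difference of 0.16 (SE 0.05, 1.12-fold higher in females) had the smallest exact permutation p that 5 against 5 allows, 0.00794, and an adjusted p of 0.410. It was 0.22, 0.16 and 0.10 within the 3 slides. At 21 weeks the sexes differed by 0.02 (SE 0.09, exact permutation p = 0.683) and at 78 weeks by -0.08 (SE 0.10, exact permutation p = 0.476), or -0.07 without both arrays at odds (SE 0.13, exact permutation p = 0.571).

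A further row of the tables carried the name Cdkn1b but read another strand. Its probe was designed to an expressed sequence tag at chr4:172091327-172091386 on the minus strand and overlaps the end of the lead probe by 19 bases. The overlap is shown to make clear why this row is no second measurement of Cdkn1b, first as the lead probe has it (chr4:172091327-172091345, plus strand) and then as the tag's probe has it.

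Cdkn1b lead probe, last 19 bases: cctgtgtatgagaaaaact
tag probe, the same 19 bases on the minus strand: agtttttctcatacacagg

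That probe was well above background on 0 of 30 arrays. Its row was the 1 member row with an unadjusted p under 0.05 at 78 weeks, with females higher by 0.77 (SE 0.32, adjusted p = 0.772, exact permutation p = 0.0476), which is a difference between signals at background. It was 0.63 without both arrays at odds (SE 0.38, exact permutation p = 0.143). The additional Cdkn2c row came likewise from a tag on the opposite strand, at chr5:131017939-131017998, and was well above background on 0 of 30 arrays.

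The Ink4 genes Cdkn2a and Cdkn2b are neighbours on rat chromosome 5. Cdkn2a encodes p16Ink4a and, through another first exon and reading frame, the Mdm2 inhibitor p19Arf, and Cdkn2b encodes p15Ink4b. The 2 probes are printed here because the genes are related in sequence and only 1 of them gave signal. Both lie on the minus strand of rn3, the Cdkn2a probe at chr5:108916026-108916085 and the Cdkn2b probe at chr5:108946651-108946710. The longest run of bases that they share, 7 of 60, is in capitals.

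Cdkn2a probe: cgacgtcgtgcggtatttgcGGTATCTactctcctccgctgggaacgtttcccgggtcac
Cdkn2b probe: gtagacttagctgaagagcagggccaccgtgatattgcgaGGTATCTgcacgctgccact

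Which of the transcripts of Cdkn2a the probe reads was not settled here. It was dim, well above background on 18 of 30 arrays, and the number was larger in older hearts: 4 of 10 hearts at 8 weeks, 5 of 10 at 21 weeks and 9 of 10 at 78 weeks. Its level ran from -4.50 to -2.59 at 8 weeks (median -3.84), -3.67 to -2.43 at 21 weeks (median -3.43) and -4.02 to -2.40 at 78 weeks (median -2.95). The age groups overlapped over much of their ranges.

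By heart, the 8-week females had -4.50, -3.51, -4.06, -3.80 and -4.29 and the 8-week males -4.03, -3.61, -3.88, -3.72 and -2.59. The 78-week females had -2.40, -2.73, -4.02, -2.99 and -3.17 and the 78-week males -2.87, -2.90, -3.24, -3.54 and -2.82. At 21 weeks the females had -3.60, -3.34, -3.42, -3.45 and -3.67 and the males -3.46, -3.24, -2.96, -2.43 and -3.43. Of the 8-week hearts, male replicate 5 alone stood at the level of the upper 78-week hearts, and of the 78-week hearts female replicate 3 alone stood with the lower 8-week hearts.

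**Figure D2:**
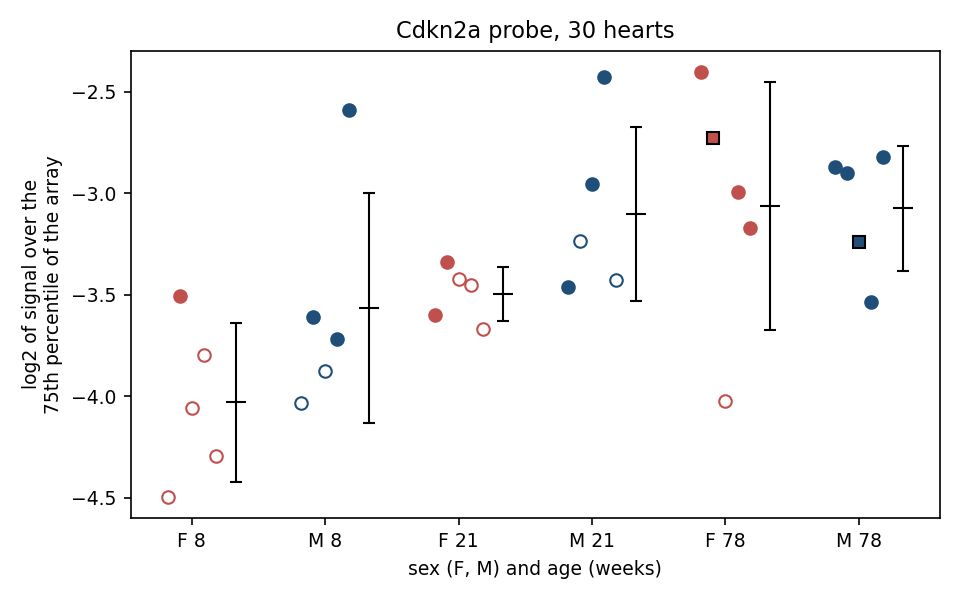
Level of the Cdkn2a probe (log2 of signal over the array's 75th percentile, vertical axis) in each of 30 hearts by sex and age in weeks (F red, M blue), with mean and SD of each group of 5; open circles mark arrays on which the probe was not well above background and black-edged squares the 2 arrays whose Y-linked signal goes against the label. Filled points are the majority at 78 weeks alone, with 4, 5 and 9 of 10 hearts.

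The Cdkn2a probe passed for 78 against 8 weeks with 0.73 (SE 0.20, adjusted p = 0.0124), but 6 of the 10 hearts at 8 weeks gave signals not well above background, so the size of the difference is not settled. It passed for 21 against 8 weeks with 0.50 (SE 0.20, adjusted p = 0.0300), where 6 and 5 of the 10 hearts were not well above background, and gave 0.08 after normexp (adjusted p = 0.0814). Between 21 and 78 weeks it differed by 0.23 (SE 0.20, adjusted p = 0.370). Probes well above background on 15 to 21 arrays, a class of like signal, had a median difference of 0.12 from 8 to 78 weeks, and those on no array 0.25. In females alone the difference from 8 to 78 weeks was 0.96 (SE 0.29, adjusted p = 0.0655) and in males alone 0.49 (SE 0.29, adjusted p = 0.359), and without both arrays at odds 0.89 (SE 0.32, adjusted p = 0.154) and 0.54 (SE 0.32, adjusted p = 0.387). The slide with both ages gave 1.89 between the females and -0.28 between the males. Arrays of the shared scan day gave 0.77.

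The size of the Cdkn2a difference for 78 against 8 weeks depended on how background was treated. From the median signal without subtraction it was 0.31 (adjusted p = 0.00168). After normexp background correction and quantile normalization it was 0.10 with an adjusted p of 0.0595. The background flags are the scanner software's own and were not recomputed.

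Between the sexes the Cdkn2a row differed by -0.48 at 8 weeks (SE 0.30, exact permutation p = 0.151), -0.41 at 21 weeks (SE 0.27, exact permutation p = 0.0794) and -0.01 at 78 weeks (SE 0.30, exact permutation p = 0.984). The 78-week value was -0.14 without both arrays at odds (SE 0.35, exact permutation p = 0.714). Males had more hearts above background at each age, 3 against 1, 3 against 2 and 5 against 4.

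The Cdkn2b probe was well above background on 0 of 30 arrays, from -6.15 to -5.08 at 8 weeks, -6.10 to -3.77 at 21 weeks and -5.97 to -4.34 at 78 weeks. Its signals have no order, and no difference is given for it.

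Cdkn2c encodes p18Ink4c. Its lead probe (chr5:131018328-131018387, minus strand) was well above background on all 30 arrays and stood at 0.54 ± 0.16, 0.58 ± 0.33 and 0.60 ± 0.22 at 8, 21 and 78 weeks (SD, n = 10 each). The differences between ages were 0.06 (78 against 8 weeks, SE 0.09, adjusted p = 0.661) and 0.035 (21 against 8 weeks, SE 0.09, adjusted p = 0.747). The adult hearts were the group in which its sexes lay furthest apart. Over all names the median difference between the sexes was also larger at 21 weeks, -0.12 (female minus male, log2), against -0.0072 at 8 weeks and -0.0011 at 78 weeks.

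In the 21-week table the 5 females had Cdkn2c values of -0.56, -0.60, -0.30, -0.42 and 0.17 and the 5 males -0.04, 0.29, -0.07, 0.08 and 0.22. Only the highest female reached the males. The difference was -0.44 (SE 0.15, 1.35-fold lower in females, adjusted p = 0.173, exact permutation p = 0.0317), with -0.69, -0.33 and -0.08 within the 3 slides. From the raw median signal it was -0.45 and passed (SE 0.13, adjusted p = 0.0390), where 824 rows passed in all. It was also negative at 8 weeks, -0.13 (SE 0.09, exact permutation p = 0.214), and at 78 weeks, -0.22 (SE 0.13, exact permutation p = 0.135). Without both 78-week arrays at odds with their labels it was -0.28 (SE 0.14, exact permutation p = 0.0571).

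Cdkn2d encodes p19Ink4d. It was well above background on all 30 arrays, and its probe has no position in the array's annotation. Its level ran from 2.06 to 2.40 at 8 weeks, 2.00 to 2.93 at 21 weeks and 2.02 to 2.23 at 78 weeks, so that the 78-week hearts were the tightest group. Cdkn2d differed by -0.10 between 78 and 8 weeks (SE 0.08, adjusted p = 0.413). It rose by 0.24 from 8 to 21 weeks (SE 0.08, adjusted p = 0.0104), a call lost under quantile normalization (0.14, adjusted p = 0.147), and fell by 0.34 from 21 to 78 weeks (SE 0.08, adjusted p = 0.000924). The sexes differed by -0.12, -0.10 and 0.02 at 8, 21 and 78 weeks, with exact permutation p-values of 0.103, 0.595 and 0.754, and at 78 weeks without both arrays at odds by 0.01 (SE 0.09, exact permutation p = 0.857).

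The D-type cyclins, partners that Ink4 proteins displace, were both lowest at 21 weeks. Ccnd1 (lead probe chr1:205513299-205513359, minus strand) ran from 3.28 to 3.94 at 8 weeks, 2.93 to 3.30 at 21 weeks and 2.94 to 3.97 at 78 weeks. Its value was missing on 1 array of 8 weeks and 1 of 78 weeks, where the spot was an outlier, and the fit left those out. Ccnd1 fell by 0.45 from 8 to 21 weeks (SE 0.09, adjusted p = 8.51e-05) and rose by 0.34 from 21 to 78 weeks (SE 0.09, adjusted p = 0.00219). A second Ccnd1 probe fell by 0.18 from 8 to 21 weeks (SE 0.06, adjusted p = 0.0139) and differed by 0.12 from 21 to 78 weeks (SE 0.06, adjusted p = 0.162).

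Ccnd2, whose probe spans 6825 bases of chr4 (163779968 to 163786792, minus strand) and so crosses an intron, ran from 3.67 to 4.15 at 8 weeks (median 3.96). At 21 weeks it ran from 2.73 to 3.93 (median 3.36) and at 78 weeks from 3.80 to 4.47 (median 4.21). Of the 10 adult hearts, female replicate 1 (3.71) and male replicate 1 (3.93) reached the range of the young, and male replicate 1 alone that of the old. Ccnd2 fell by 0.54 from 8 to 21 weeks (SE 0.10, 1.45-fold lower, adjusted p = 0.000110) and rose by 0.79 from 21 to 78 weeks (SE 0.10, 1.73-fold higher, adjusted p = 3.48e-07).

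**Figure D3:**
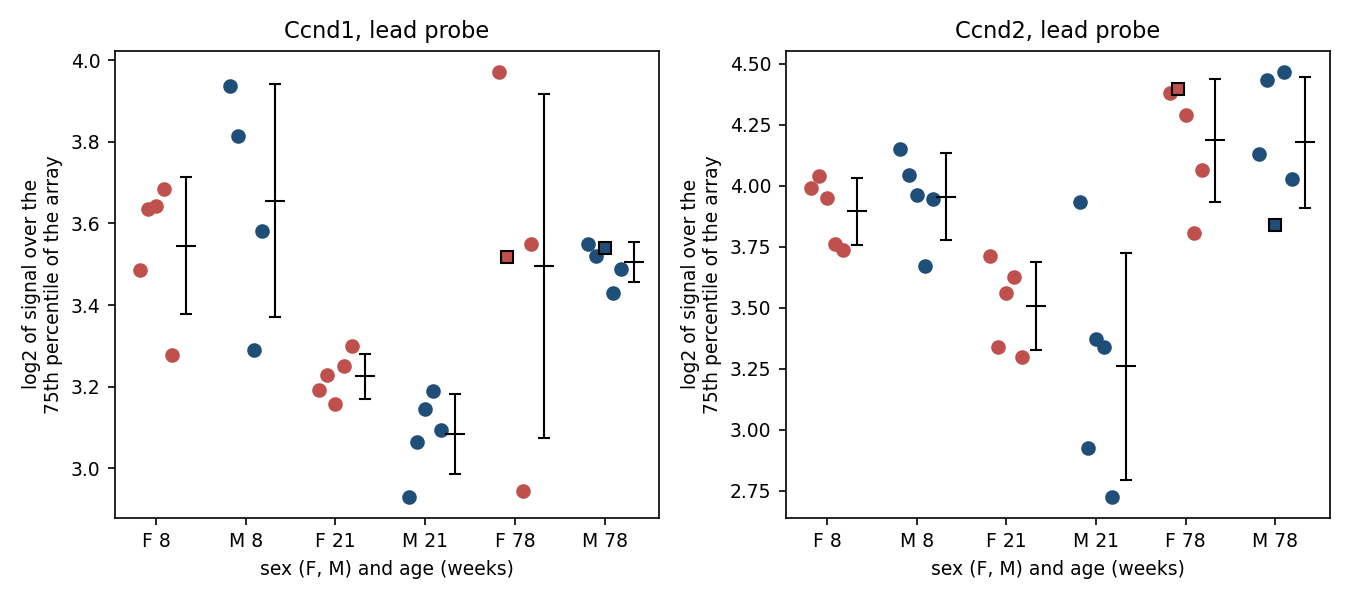
Levels of the Ccnd1 (left) and Ccnd2 (right) lead probes (log2 of signal over the array's 75th percentile, vertical axes) in each heart by sex and age in weeks (F red, M blue), with mean and SD of each group; black-edged squares are the 2 arrays whose Y-linked signal goes against the label, and 2 hearts have no Ccnd1 value. The 21-week hearts lie lowest, with Ccnd2 between 2.73 and 3.93 against 3.67 to 4.15 at 8 weeks.

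Neither cyclin passed for 78 against 8 weeks, where Ccnd1 differed by -0.12 (SE 0.09, adjusted p = 0.365) and Ccnd2 by 0.25 (SE 0.11, adjusted p = 0.120). The 21-week arrays shared a scan day with 4 of the 78-week arrays, and within that day 78-week hearts were higher than 21-week hearts by 0.71 for Ccnd2 and 0.20 for Ccnd1. With scan day as a term, 0 of the 15 member probes passed for 21 against 8 weeks and 3 for 78 against 21 weeks. Between the sexes Ccnd1 differed by -0.16, 0.10 and 0.04 and Ccnd2 by -0.07, 0.24 and -0.01 at 8, 21 and 78 weeks in the tables (adjusted p from 0.481 to 0.992). Without both arrays at odds the 78-week values were 0.08 for Ccnd1 (SE 0.11, exact permutation p = 0.514) and -0.15 for Ccnd2 (SE 0.14, exact permutation p = 0.429).

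Mdm2, a ubiquitin ligase that limits the response to DNA damage, ran from 1.37 to 1.80 at 8 weeks, 1.48 to 2.24 at 21 weeks and 1.48 to 1.89 at 78 weeks on its lead probe (chr7:57017610-57017669, minus strand). It differed by 0.06 between 78 and 8 weeks (SE 0.07, adjusted p = 0.552). Mdm2 rose by 0.26 from 8 to 21 weeks (SE 0.07, adjusted p = 0.00253), beside a median of 0.28 over all probes. Its second probe rose by 0.25 (SE 0.10, adjusted p = 0.0289). That probe gave 0.50 in males alone (adjusted p = 0.00493) and 0.0066 in females alone (adjusted p = 0.982). From 21 to 78 weeks the lead probe fell by 0.20 (SE 0.07, adjusted p = 0.0237), a call lost without both arrays at odds with their labels (-0.17, adjusted p = 0.0795) and under quantile normalization (-0.15, adjusted p = 0.0627). The second probe differed by -0.24 (SE 0.10, adjusted p = 0.0649), with -0.50 in males alone (adjusted p = 0.00831) and 0.02 in females alone.

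In the tables Mdm2 was higher in females by 0.15 at 8 weeks (SE 0.08, exact permutation p = 0.0635) and by 0.17 at 78 weeks (SE 0.08, exact permutation p = 0.0238), and lower by -0.16 at 21 weeks (SE 0.15, exact permutation p = 0.333). The adjusted p-values at 8, 78 and 21 weeks were 0.806, 0.772 and 0.540. Within the slides the difference at 78 weeks was 0.30, 0.04 and 0.29, and the slide that gave 0.04 held both arrays at odds with their labels. At 78 weeks the 5 females had -0.44, -0.55, -0.61, -0.50 and -0.48 and the 5 males -0.71, -0.55, -0.67, -0.74 and -0.79. The array labelled female replicate 2 and 1 other female lay within the range of the males. The difference was 0.19 without both arrays at odds (SE 0.10, exact permutation p = 0.0571).

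**Figure D4:**
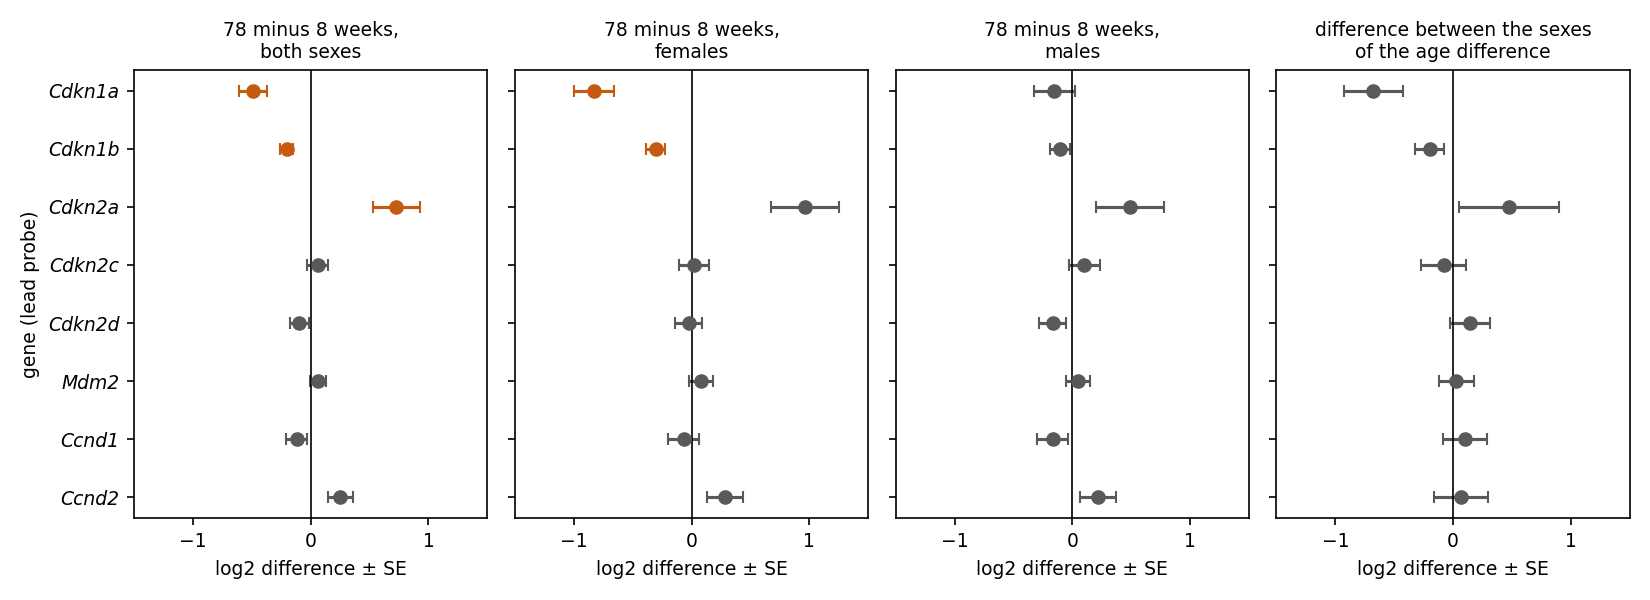
Difference from 8 to 78 weeks (log2, horizontal axes, point and SE) of the lead probes of 8 genes, over both sexes, in females, in males, and as the female minus the male age difference; orange marks an adjusted p under 0.05. Cdkn1a fell by 0.49 over both sexes and by 0.83 in females, against -0.15 in males, and no gene passed in the panel on the right.

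Around the 9 genes, lists of their pathway were read in the same fit on 1 probe a gene. For comparison, of 35548 gene names tested for 78 against 8 weeks, 2366 were higher and 1958 lower, with a median of 0.14 (log2). The list genes were not refitted under other scalings, which moved the median of all probes between -0.00094 and 0.15 for this comparison. A list of 3 further genes with Cdk inhibitor names (Cdkn1c, Cdkn3 and Cdkn2aip) was measured, though not every gene of it encodes a Cdk inhibitor. Cdkn1c (p57, the remaining Cip/Kip gene) rose from 2.62 ± 0.16 to 3.05 ± 0.30 (SD, n = 10 each), by 0.42 (SE 0.08, adjusted p = 0.000378). Cdkn3, a phosphatase that acts on Cdks and is made in dividing cells, fell by 1.03 (SE 0.12, 2.04-fold lower, adjusted p = 2.59e-07). Cdkn2aip, well above background on 7 of 30 arrays, did not pass (0.08, SE 0.26, adjusted p = 0.853).

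Among the G1 cyclins, kinases and pocket proteins 1 of 11 rose and 2 fell, with a median of 0.03. Cdk2, the kinase that Cdkn1a and Cdkn1b restrain, fell by 0.51 (SE 0.08, adjusted p = 2.20e-05). The E2F partner Tfdp1 fell by 0.29 (SE 0.06, adjusted p = 0.00135) and the pocket protein Rbl2 rose by 0.21 (SE 0.06, adjusted p = 0.00938).

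Of 19 target genes of the DNA damage response 1 rose and 3 fell, with a median of 0.05. Those that fell were Ckap2 by 0.95 (SE 0.09, adjusted p = 4.91e-09), a spindle protein, and the death genes Bbc3 by 0.52 (SE 0.09, adjusted p = 8.83e-05) and Bax by 0.44 (SE 0.08, adjusted p = 0.000148). Gadd45a rose by 0.22 (SE 0.07, adjusted p = 0.0424). The other 15 did not pass.

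Of 22 genes of senescence and its secretory factors 5 rose and 3 fell, with a median of 0.15 beside 0.14 over all names. The cytokines Il6, Il1a and Tnf are among the 22 but were well above background on 0 of 30 arrays. Probes on no array had a median of 0.25, so the median of this list rests in part on background signal. The stress cytokine Gdf15 rose from -3.56 ± 1.09 to -1.44 ± 1.11 (SD, n = 10 each), by 2.12 (SE 0.36, 4.35-fold higher, adjusted p = 9.86e-05), and was well above background on 6 of 10 arrays at 8 weeks and on 10 of 10 at 78. The urokinase receptor Plaur rose by 0.98 (SE 0.16, 1.97-fold higher, adjusted p = 7.35e-05). Lmnb1, the nuclear lamin that senescent cells lose, was well above background on 6 of 10 arrays at 8 weeks and 0 of 10 at 78 weeks. This gives an approximate lower bound of a 1.13-fold lower level at 78 weeks (adjusted p = 0.000670 in the fit).

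Of 13 regulators of the Cdkn2a locus 5 rose and 0 fell, with a median of 0.07. The largest were the Polycomb protein Cbx7, a repressor of the locus, which rose by 0.55 (SE 0.06, adjusted p = 3.13e-08), and Jun by 0.48 (SE 0.06, adjusted p = 1.38e-06). Junb rose by 0.47 (SE 0.09, adjusted p = 0.000494) and Myc by 0.41 (SE 0.09, adjusted p = 0.00133). The list thus holds both a repressor and activators among the genes that rose.

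Cell division genes gave the clearest count, with 0 of 24 higher and 15 lower in 78-week hearts and a median of -0.80. The mitotic kinase Cdk1 fell from 1.00 ± 0.44 to -0.25 ± 0.29 (SD, n = 10 each), by 1.26 (SE 0.10, 2.40-fold lower, adjusted p = 3.04e-11). Top2a, the topoisomerase of dividing cells, fell by 1.32 (SE 0.17, 2.50-fold lower, adjusted p = 9.42e-07), and the proliferation marker Mki67 by 1.36 (SE 0.30, 2.56-fold lower, adjusted p = 0.001997). Ccnb2, a mitotic cyclin, was well above background on 9 of 10 arrays at 8 weeks and 0 of 10 at 78 weeks. The approximate lower bound of its fall is 1.70-fold (adjusted p = 1.70e-06).

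**Figure D5:**
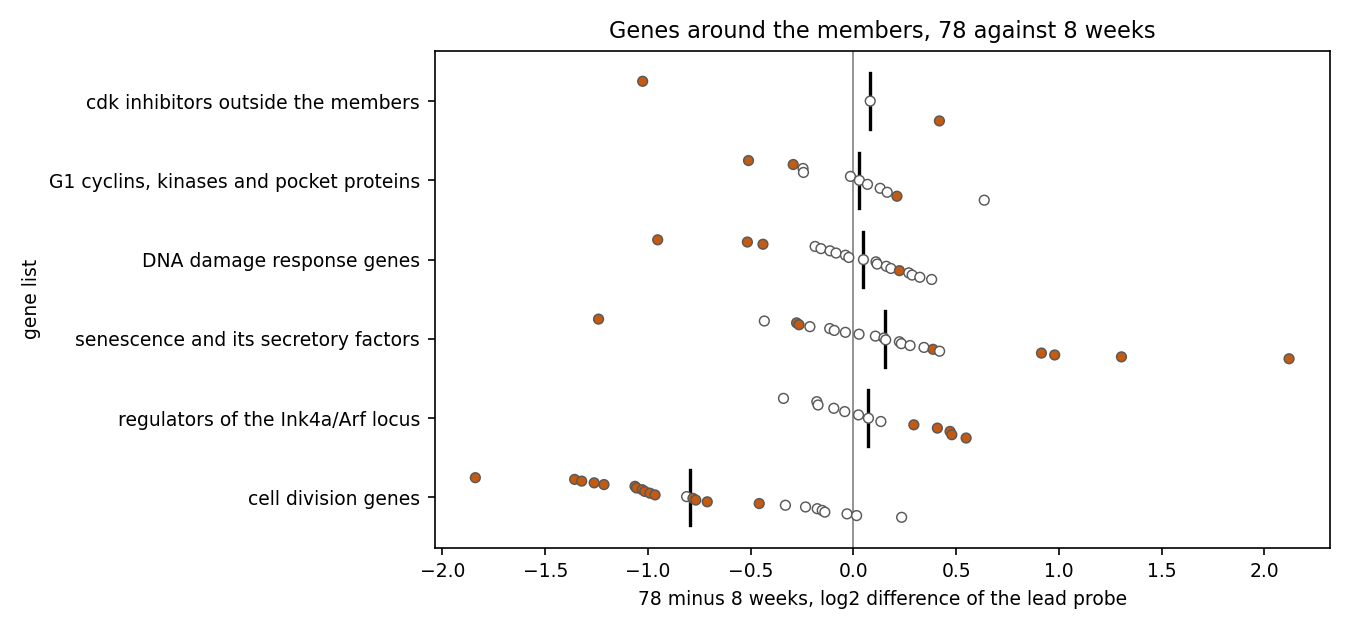
Difference from 8 to 78 weeks (log2, horizontal axis) of each gene in 6 lists around the members, 1 point a gene on its lead probe; orange marks an adjusted p under 0.05 and black bars the median of the list. The cell division genes lie mostly left of 0 with a median of -0.80, while the secretory list reaches Gdf15 at 2.12.

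At 8 weeks 4 of 23 cell division genes passed between the sexes, all lower in females, where 58 of 23268 names did. Cdk1 stood at -0.08 ± 0.17 in females and 0.71 ± 0.17 in males (SD, n = 5 each), a difference of -0.79 (SE 0.10, adjusted p = 0.00242). Ccnb1 was lower by -0.94 (SE 0.14, adjusted p = 0.0130), Bub1b by -0.88 (SE 0.11, adjusted p = 0.00499) and Plk1 by -0.66 (SE 0.09, adjusted p = 0.0108). Markers of other cells differed in the same hearts: of 5 erythroid markers 4 were higher in males at an unadjusted p of 0.05 and 1 passed (median -0.86, female minus male), and of 6 fibroblast markers 3 were higher and 1 passed (median -0.16). Their part in these differences was not tested. In the same 8-week hearts the Cdkn1b row was higher in females without overlap (0.16, adjusted p = 0.410), where 1.41% of all rows did not overlap. A link to the cell division genes was not tested. Ckap2 of the DNA damage list also passed between the sexes at 8 weeks, with -0.65 (SE 0.09, adjusted p = 0.00743). At 21 weeks 1 of the 23 passed, Mcm5 with -1.62 (SE 0.29, adjusted p = 0.0410).

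Some cell type markers passed between ages as well, and their part in the members' differences was not tested. From 8 to 78 weeks 0 of 6 fibroblast markers rose and 2 fell (Col1a1 and Col3a1), 3 of 6 macrophage markers rose (Cd68, Cd163 and C1qa), and 0 of 7 cardiomyocyte markers rose and 1 fell (Pln). Among probes well above background on all 30 arrays 23.2% passed for this comparison, so counts over so few markers are no result about a cell type. The summed fibroblast signal ranged from 8.85 to 9.04 in 8-week females, 8.92 to 9.17 in 8-week males, 7.85 to 8.50 in 78-week females and 8.22 to 8.62 in 78-week males (log2 of the sum). The summed macrophage signal ranged from 6.02 to 6.24 and 5.98 to 6.31 in 8-week females and males and from 5.89 to 6.44 and 6.34 to 6.82 in those of 78 weeks. The summed cardiomyocyte signal overlapped, with 10.95 to 11.54 over the 8-week males and 11.26 to 11.73 over the 78-week males.

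Genes whose levels followed a member most closely over the arrays were found by the root mean square difference of centred log2 levels, among 8482 names on all 30 arrays. For Cdkn1a they were Fkhl18, a forkhead factor (0.16 against Cdkn1a's own 0.38), and Bbc3 (0.22), the death gene named above. For Cdkn2a they were Fkbp5 (0.35 against 0.53), a chaperone induced by glucocorticoids, and RGD1560139 (0.38). For Ccnd2 they were Zfyve20 (0.15 against 0.42) and Kif5b (0.16), for Ccnd1 over 28 arrays Smad1 and LOC687849 (0.16 each against 0.27), for Cdkn1b Spcs2 and Chmp5 (0.11 each against 0.20), for Cdkn2d LOC686393 and Dpm2 (0.09 and 0.10 against 0.23), and for Mdm2 Zfp96 and Arl3 (0.09 each against 0.19).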

How the data were processed

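Expression was measured in 30 rat hearts on 1-colour Agilent arrays read with Feature Extraction. The authors deposited intensity values that are linear, scaled to each array's 75th percentile and averaged over the spots of a name, in 1 table per age. They also deposited the scanner files, whose processed signal intensity and background flags were used here. Member rows were matched to probes by their values within 0.002 (log2). The 21-week male columns matched a group but no single rat. Sexes were compared within each age on log2 table values with limma 3.58.1 (R 4.3.3, lmFit and eBayes with trend), as the study compared sexes by age, and by exact permutation over rats. Ages were compared on log2 processed signal over the 75th percentile of each array, in 1 fit of 6 groups with slide as a random block. P-values were adjusted by Benjamini-Hochberg over all rows or probes at 0.05. They measure the spread between these rats, and for ages they do not set slide or batch apart. The slide correlation in the fit of ages was -0.042. The number of arrays limits the precision. Where no array of an age had a probe well above background, the fold is an approximate lower bound taken against the dimmest signal well above background. It is not exact, as a signal without that flag reached -3.27 at 78 weeks, above the bound of -3.53 used there. Both fits were tested on simulated data: at 8 weeks 46% of differences of 1 log2 unit between the sexes and 31% of 0.5 were recovered, and for 78 against 8 weeks 72% and 29%. The simulated noise was independent between arrays, without slide or batch effects, and the slide correlation was set to 0. The changed rows and probes were of all signal levels, so recovery for bright member probes was not measured. Alternatives were other backgrounds, scalings, blocks, filters and leaving out rats. All members are named, with up to 4 genes of each list, those past the threshold with the largest difference, and some listed genes are not reported here. Members and lists were chosen with earlier results of these data known. Of 178 listed genes 149 were found on the array. Positions are those of the scanner files (rn3).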

Additional observations from a re-analysis of the deposited data

Results flagged for a closer look

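Of 54 groups of lead probe levels tested for a single heart far from the others, 5 had one, where chance gives about 1 in 20. Cdkn1b stood at 2.81 in the 8-week female replicate 2, against 2.62 to 2.66 in the other females, and at 2.49 in the 8-week male replicate 2, against 2.52 to 2.53. Cdkn2c stood at 0.245 in the same male, against 0.652 to 0.725 in the others. Cdkn2d stood at 2.80 in the 21-week female replicate 5, against 2.25 to 2.37. Cdkn2b stood at -4.42 in the 78-week female replicate 5, against -5.97 to -5.58, on a probe not well above background on any array.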

How the results depend on the processing

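The falls of Cdkn1a and Cdkn1b and the difference of Cdkn2a from 8 to 78 weeks passed in all 30 fits that left out 1 rat each (-0.56 to -0.38, -0.23 to -0.17 and 0.65 to 0.85). Of the 15 member probes, 0 passed for 78 against 8 weeks with slide as a fixed block (Cdkn1a -0.53, Cdkn1b -0.17, Cdkn2a 0.81) and 0 in males alone, also without both arrays at odds. For 21 against 8 weeks 5 passed after normexp with quantile normalization, 6 with the percentile taken over detected probes, 0 with scan day as a term and 1 in females alone. For 78 against 21 weeks 3 passed with scan day as a term, 4 in females alone and 3 in females without both arrays at odds. Scan day and the sexes without those arrays were added after seeing the data. The cause of these changes was not tested.

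Leaving out 1 rat each gave 3 to 4 probes for 78 against 8 weeks, 7 to 10 for 21 against 8 and 5 to 8 for 78 against 21 (lowest without the 21-week male replicate 2 in both), 0 to 1 for the differences between sexes (1 without the 21-week male replicate 1) and 0 to 0 rows for the sexes at each age. Ccnd2 passed for 78 against 8 weeks without the 78-week female replicate 4 (0.30, adjusted p = 0.0460).

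With the replicate number as a block, 1 member row passed between the sexes at 21 weeks (Cdkn2c, adjusted p = 0.0395), where 2116 rows passed in place of 34. Same-numbered rats correlated from -0.26 to 0.36 and shared a slide, so the numbers were not taken as pairs. From the raw median signal 1 row passed too (Cdkn2c, adjusted p = 0.0390, 824 rows in all).

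Cdkn1a, which fell over both sexes, gave 0.027 for 78 against 8 weeks and 0.032 for 78 against 21 in males without both arrays at odds, and passed in neither. None of the other values that changed sign passed with or without the change. Female minus male at 78 weeks, Cdkn2a gave 0.011 from rebuilt values, with slide as a block and without dim probes, 0.049 after quantile normalization and 0.035 after normexp, Ccnd2 gave 0.0078 in the first 3 of these, and Cdkn2d gave -0.0019 (quantile), -0.049 (raw median) and -0.067 (normexp). Cdkn2c for 21 against 8 weeks gave -0.043 (raw median), -0.080 (percentile over detected probes) and -0.12 (females), and for 78 against 21 weeks -0.024 (without both arrays at odds), -0.086 (scan day) and -0.087 (males). Without both arrays at odds Cdkn2c gave -0.063 for 78 against 8 weeks in females and -0.11 for 78 against 21 in males. Cdkn2a for 78 against 21 weeks gave -0.069 (raw median). Ccnd1 for 78 against 8 weeks gave 0.33 (slide fixed) and 0.021 (scan day). Leaving out 1 rat each, female minus male ran from -0.17 to 0.0012 for Cdkn1a and -0.21 to 0.019 for Cdkn2d at 21 weeks, and at 78 weeks from -0.014 to 0.11 for Ccnd1, -0.094 to 0.088 for Ccnd2, -0.15 to 0.00047 for Cdkn1b, -0.17 to 0.23 for Cdkn2a and -0.014 to 0.046 for Cdkn2d, while Cdkn2c ran from -0.028 to 0.069 for 21 against 8 and -0.014 to 0.090 for 78 against 21 weeks.

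Over all probes, 4874 passed for 78 against 8 weeks, 4090 without the slide block, 7848 from the raw median signal and 348 with slide fixed. For 21 against 8 weeks 23499 passed, 12528 after quantile normalization, 11243 after normexp, 12183 without dim probes and 4770 with scan day, and for 78 against 21 weeks 13395 and 8575 with scan day. Between the sexes at 8 weeks 60 rows passed, 34 with slide as a block, 29 after quantile normalization and 21 by the methods' t-test after adjustment, and at 21 weeks 34, 104 with slide as a block and 14 by that test.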
